A study of Mus musculus with 2 samples.

Results

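The extracellular metalloprotease genes of the mouse cochlea, namely the matrix metalloproteases (Mmp), the secreted proteases with thrombospondin repeats (Adamts) and the tissue inhibitors of metalloproteases (Timp), were followed 3 hours after acoustic trauma. Members were taken by gene name alone, as every array gene called Mmp or Adamts plus a number, together with Timp1 to Timp4, and 1 Mmp gene was left out. This gave 45 genes with 90 probes (22 Mmp, 19 Adamts and 4 Timp) of the 37074 gene names on the array. The noise sample was cochlear RNA of mice dissected 3 hours after 2 hours of intense noise, and the baseline sample was cochlear RNA of mice without noise exposure. Both came from 7-week-old female mice of the inbred C57BL/6 strain, and the labels give neither the sound level, the number of mice pooled nor the hour of dissection. Each group had 1 array, so every difference below is between 2 samples, with no replicate error and no test.

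Metalloproteases of these families carry a zinc ion in the catalytic site, are made as inactive proenzymes and cut collagens, proteoglycans and other proteins outside the cell. Timp proteins bind the active site and hold the enzymes in check, so that matrix turnover depends on the balance of both. In the cochlea these genes are of interest because the sensory epithelium, the lateral wall and the bony capsule all rest on specialised matrix.

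The arrays were of similar brightness, with 75.3% (noise) and 75.2% (baseline) of probes well above background. Values below are scaled signals, that is the scanner software's processed signal after both arrays were brought to the same 75th percentile (296), and log2 ratios are noise minus baseline. The scaled signals of one probe can be compared between the arrays, and those of different probes cannot. The SD of a log2 ratio was 0.27 between different probes of a gene (0.41 for signals under 20, 0.28 for 20 to 200 and 0.19 for 200 or more). Repeat spots of a probe gave an SD of 0.071, but 296 of these 300 probes had signals of 200 or more, while 28 of the 37 members measured on both arrays lie below that level. Cochlear markers were present, as in Coch, a matrix protein of the spiral ligament and limbus (19017 after noise and 14981 at baseline), and Otos, a fibrocyte protein (464 after noise and 511 at baseline). All 13 sensory and lateral wall markers were measured. Prestin (Slc26a5), the outer hair cell motor, was near the lower limit, at 5.28 after noise and 8.90 at baseline.

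Few members of the protease system differed by 2-fold at 3 hours. Of the 45 genes, 37 had a probe well above background on both arrays. Of these, 29 lay within 0.5 of 0 on the log2 scale (78.4%), beside 88.7% of all measured genes. None was at least 2-fold higher, where 0.611% of all 26533 measured genes were. Adamts4 and Timp4 were at least 2-fold lower, which is 2 of 37 members, where 1.25% of all genes were. With the smaller size of 0.5 in log2 ratio, Mmp13 and Timp3 were higher, 2 of 37 members beside 4.53% of all genes. At that size 6 members were lower, Adamts4, Timp4, Adamts8, Adamts15, Adamts16 and Mmp11, beside 6.81% of all genes. Log2 ratios were below 0 in 23 of 37 members, beside 52.5% of all genes. The median log2 ratio was -0.12 over the members and -0.01 over all genes. With 2 arrays these shares carry no test, and with scaling on the control RNAs spiked in for labelling (spike-in scaling), which moved the median of all genes to 0.21 and each gene by the same amount, the median of the members was 0.10 and 11 of 37 were below 0. In bulk tissue, fewer cells of a type and less RNA per cell cannot be told apart.

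**Figure D1:**
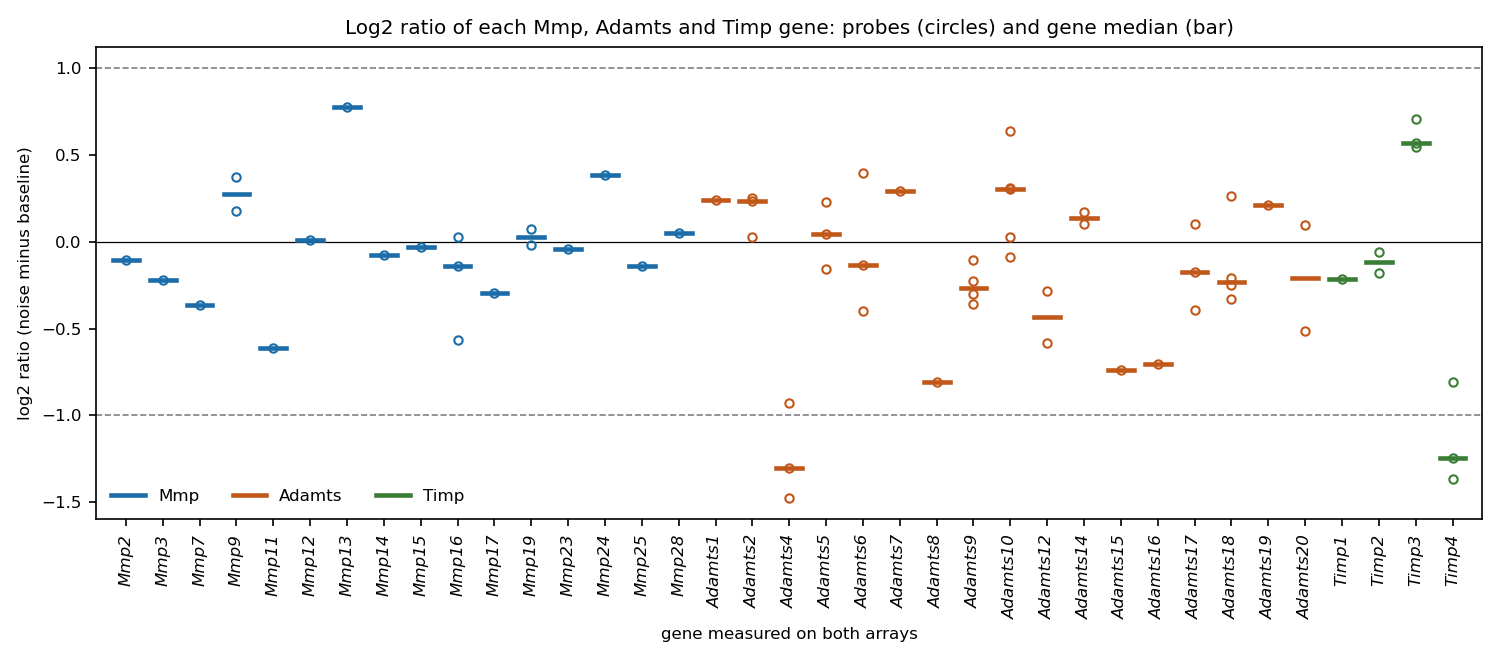
Log2 ratio (noise minus baseline, y axis) of the 37 genes measured on both arrays (x axis), with a circle for each measured probe and a bar for the gene's median; dashed lines mark 2-fold. Mmp13 (0.78) and Timp3 (0.57) stand highest, and Adamts4 (-1.30) and Timp4 (-1.25) lowest.

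The inhibitors parted. Timp3 (probes on chromosome 10 between 85769407 and 85812100, mm9), which binds to the matrix and also restrains Adam17 and the aggrecanases, had signals of 6655, 6260 and 50.7 on its 3 probes after noise, against 4563, 4219 and 31.1 at baseline. All 3 probes were higher after noise, with log2 ratios of 0.54, 0.57 and 0.71, and the gene was 1.48-fold higher. Timp4, an inhibitor known from heart and fat tissue, lies on chromosome 6, with probes between 115195840 and 115196928 (mm9). It had signals of 156, 92.3 and 17.5 on its 3 probes after noise, against 370, 238 and 30.7 at baseline. All 3 were lower after noise (-1.25, -1.36 and -0.81), and the gene was 2.37-fold lower. Its log2 ratio was above that of only 0.637% of measured genes, while Timp3 stood above 96.8% of them. With a model-based background correction (the normexp background), Timp4 was at -0.98 and thus just under 2-fold. Adipocyte markers were lower too, with a median of -1.46 over 12 genes, and their part in the Timp4 value was not tested.

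The other inhibitors differed little between the arrays. Timp1, which in many tissues is induced by injury, had a signal of 895 after noise and 1039 at baseline, a log2 ratio of -0.21. Timp2, which inhibits and also takes part in the activation of pro-Mmp2, had signals of 16360 and 988 on its probes after noise, against 17012 and 1119 at baseline. Its probes were at -0.06 and -0.18. With spike-in scaling, the median of the 4 Timp genes was 0.06, against -0.17 with the scaling used here.

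Each of 3 inhibitor genes lies inside a synapsin gene in the RefSeq annotation (GRCm38.p6), and the host genes were measured too. Synapsins are proteins of synaptic vesicles. Syn2, around Timp4, was at -0.45 (79.2 after noise and 108 at baseline), Syn1, around Timp1, at -0.33 (1223 and 1541, in the same order), and Syn3, around Timp3, at -0.11 over 6 probes. Timp1 and Timp4 are read from the strand opposite to their host genes. The ratio of Timp4 was thus larger in size than that of its host. Timp3 was at 0.57, while the ratio of its host was small and had no settled sign. The median signals of Syn3 were 28.6 after noise and 27.7 at baseline, in the other direction from its ratio.

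**Figure D2:**
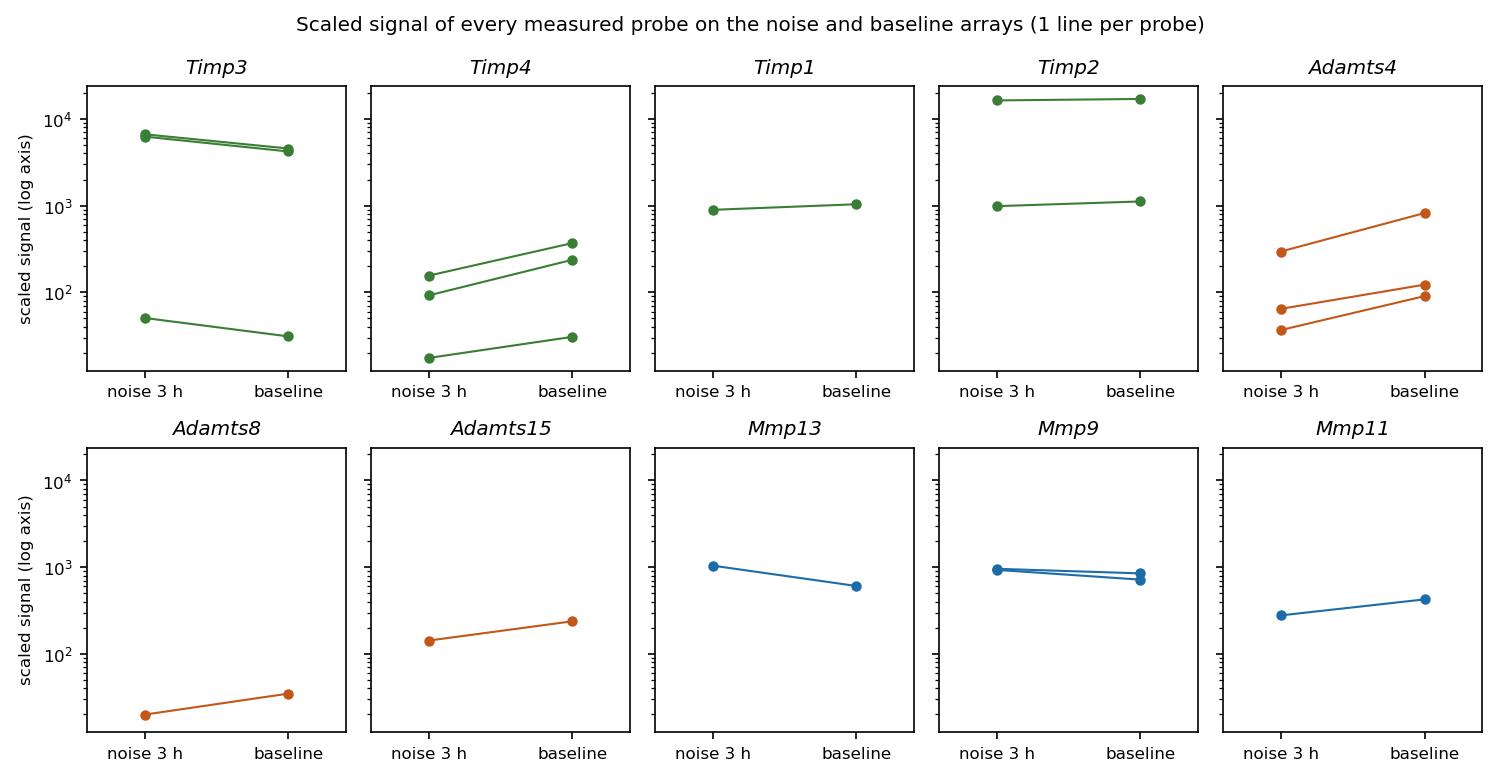
Scaled signal (log axis) of each measured probe of 10 members on the noise array (left) and the baseline array (right), 1 line per probe. Every probe of Timp3 and Mmp13 slopes down to baseline, and every probe of Timp4, Adamts4, Adamts8, Adamts15 and Mmp11 slopes up to baseline.

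Among the collagenases, Mmp13 was the member with the highest ratio of all 37. Mmp13 is the main collagenase of fibrillar collagen in the mouse and is made by osteoblasts and hypertrophic chondrocytes. Its 1 probe (chromosome 9 from 7282762 to 7282821, mm9) had a signal of 1042 after noise and 607 at baseline. The gene was thus 1.72-fold higher after noise, at a log2 ratio of 0.78 that stood above 98.7% of all measured genes. Over the 10066 genes with a signal of 200 or more, the central 95% of log2 ratios lay between -0.56 and 0.52, and Mmp13 lay outside it. With spike-in scaling it was at 1.002, which is just past 2-fold. Neither of the mouse counterparts of human interstitial collagenase, Mmp1a and Mmp1b, passed the background limit in either sample.

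Markers of bone-forming cells had values on both sides of 0. Of 11 osteoblast and chondrocyte markers, 7 were above 0, with a median of 0.17 that was 0.04 with the normexp background. Their summed signal was 61832 after noise and 45985 at baseline, most of it from osteopontin (Spp1), with 46127 after noise and 32843 at baseline. The osteocyte phosphoprotein Dmp1 was at 0.61 and Spp1 at 0.49, while the chondrocyte factor Sox9 was at -0.79, with 1 probe at -1.34 and the other at -0.23. The part of these cells in the Mmp13 value was not tested.

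The gelatinases cut denatured collagen and basement membrane collagen. Mmp9, a product of neutrophils and osteoclasts, had signals of 931 and 958 on its 2 probes after noise, against 718 and 848 at baseline. The log2 ratios of these probes were 0.37 and 0.18, and the gene value of 0.28 lay within the central 95% of genes of its level. Mmp2, made by fibroblasts and other stromal cells, had 1053 after noise and 1130 at baseline (-0.10). The part of neutrophils and osteoclasts in the Mmp9 value was not tested. Neutrophil markers had a median of 0.12 over 10 genes, with 8 above 0 and 2 below. The highest were Cxcr2 at 0.82 (479 after noise and 271 at baseline), Mpo at 0.38 and Elane at 0.30. The lowest was S100a9 at -0.15. The summed signal of the 10 genes was 258660 after noise and 263450 at baseline. Its largest share came from S100a9, with 103600 after noise and 114900 at baseline. Osteoclast markers had a median of 0.00 over 10 genes, with summed signals of 31139 and 31712 in the same order.

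Of the 4 measured stromelysin, matrilysin and macrophage elastase genes, 3 were below 0 and Mmp12 was at 0.01. Mmp11 (stromelysin 3), which is activated inside the cell by furin, had a signal of 278 after noise and 425 at baseline. It was 1.53-fold lower, at -0.61, which is below the central 95% of genes of its level. Mmp3 (stromelysin 1), a protease induced by cytokines in many cells, had 45.7 after noise and 53.2 at baseline (-0.22). Mmp7, the matrilysin of epithelia, was at -0.36 with signals of 6.48 after noise and 8.34 at baseline, near the lower limit of measurement. Mmp12, the macrophage elastase, had signals of 26.2 after noise and 26.0 at baseline. Its other 2 probes, and the single probe of Mmp10 (stromelysin 2), did not pass the background limit in either sample.

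The membrane-type enzymes act at the cell surface, and all 6 were measured with none past 0.5 in either direction. Mmp14, which activates pro-Mmp2, had a signal of 228 after noise and 240 at baseline (-0.08). Mmp15 had 119 and 122 in the same order (-0.03). Mmp17, which is held by a lipid anchor, had 60.5 after noise and 74.3 at baseline (-0.30, or -0.19 with the normexp background), and Mmp25, of the same anchor type, was at -0.14. Mmp24, known from neurons, was the highest of the 6 at 0.39, from signals of 25.1 after noise and 19.2 at baseline. The 3 probes of Mmp16 differed, between -0.57 and 0.03, around a median of -0.14.

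The remaining measured Mmp genes were at nearly equal levels in both samples. Mmp19 had signals of 7.29 and 150 on its probes after noise, against 7.38 and 143 at baseline (0.03). Mmp23 had 102 after noise and 105 at baseline (-0.04), and Mmp28, known as epilysin, had 104 after noise and 100.04 at baseline (0.05). Mmp27 passed the background limit in the noise sample only. Its signal was 7.43 after noise, and at baseline 4.29, below the lowest signal there that was well above background (4.63). The noise signal was 1.60-fold this limit. At such levels probes of a gene differed with an SD of 0.41, so little can be measured and no ratio is given. The tooth enamel protease Mmp20 and Mmp21, a gene of left-right patterning, did not pass the background limit in either sample. Over the 16 measured Mmp genes the median was -0.06, and it was 0.16 with spike-in scaling.

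Mmp13 lies at one end of a cluster of Mmp genes on chromosome 9, where most members could not be compared between the samples. The 9 members there run from Mmp13 at 7282762 to Mmp7 at 7699535 (mm9, first to last probe base). Only 4 of them, Mmp13, Mmp12, Mmp3 and Mmp7, were measured on both arrays. The log2 ratio of Mmp13 was 0.78, against 0.01 for its neighbour Mmp12, -0.22 for Mmp3 and -0.36 for Mmp7. Mmp27 passed the background limit in the noise sample only, near that limit (7.43 after noise and 4.29 at baseline), and is given no ratio. The 4 others, Mmp1a, Mmp1b, Mmp10 and Mmp20, have no ratio either.

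The start sites of these genes are shown because a binding motif of the AP-1 factors, the Fos and Jun family known to drive several Mmp genes, recurs there. The letters TGANTCA, which read the same way on both strands, were searched, with N for any base. The search thus also counted letters other than TGAGTCA and TGACTCA, among members and among all genes. It ran from 250 bases before to 50 bases after each start site in the RefSeq sequences (GRCm38.p6). Of the 31 members with such a sequence, 8 held the motif (25.8%), beside 8.97% of 27025 genes in all. All 8 lie in the chromosome 9 cluster, where only Mmp27 of 9 members lacked it. None of the 22 searched members elsewhere, Timp3 and Timp4 among them, held it. Members without such a sequence, Mmp2, Mmp9, Adamts4, Adamts8 and Adamts15 among them, were not searched, so nothing is known here of their start sites. Cluster genes are related copies, so their motifs are not independent of each other, and a match of letters is not a measured binding site. The 100 bases before the start site are printed for each cluster gene 5′ to 3′ on the strand of the gene, with the motif in capitals. For Mmp12 and Mmp7, which have 2 annotated start sites each, the one with the motif is shown. They lie at chr9:7272414-7272513 for Mmp13, chr9:7347274-7347373 for Mmp12, chr9:7388027-7388126 (minus strand) for Mmp1b, chr9:7445722-7445821 for Mmp3, chr9:7464041-7464140 for Mmp1a, chr9:7502242-7502341 for Mmp10, chr9:7571296-7571395 for Mmp27, chr9:7628131-7628230 for Mmp20 and chr9:7691990-7692089 for Mmp7.
Mmp13: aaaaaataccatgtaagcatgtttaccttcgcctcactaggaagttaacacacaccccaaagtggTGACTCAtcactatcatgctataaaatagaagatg
Mmp12: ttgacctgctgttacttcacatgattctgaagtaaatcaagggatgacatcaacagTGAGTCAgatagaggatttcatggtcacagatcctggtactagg
Mmp1b: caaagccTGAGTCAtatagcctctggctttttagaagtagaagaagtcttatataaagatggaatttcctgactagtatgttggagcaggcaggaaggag
Mmp3: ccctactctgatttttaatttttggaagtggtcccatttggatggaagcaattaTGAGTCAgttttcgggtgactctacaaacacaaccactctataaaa
Mmp1a: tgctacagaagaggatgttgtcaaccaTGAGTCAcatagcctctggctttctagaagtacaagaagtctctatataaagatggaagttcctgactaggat
Mmp10: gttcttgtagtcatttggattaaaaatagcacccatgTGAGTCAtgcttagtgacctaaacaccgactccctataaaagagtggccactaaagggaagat
Mmp27: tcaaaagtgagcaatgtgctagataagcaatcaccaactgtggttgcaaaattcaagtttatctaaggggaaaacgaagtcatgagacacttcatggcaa
Mmp20: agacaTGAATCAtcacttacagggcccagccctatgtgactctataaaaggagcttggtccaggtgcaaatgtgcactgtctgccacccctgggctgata
Mmp7: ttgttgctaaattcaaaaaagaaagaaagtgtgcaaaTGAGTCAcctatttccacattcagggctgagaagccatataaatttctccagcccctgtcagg

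In the order of the chromosome the motif began at position -35 in Mmp13, -44 in Mmp12, -93 in Mmp1b, -46 in Mmp3, -73 in Mmp1a, -63 in Mmp10, -95 in Mmp20 and -63 in Mmp7, counted from the start site. The letters were TGAGTCA in 6 genes and TGACTCA in Mmp13, which is the same site read from the other strand, while Mmp20 had TGAATCA. Genes with the motif differed in signal and ratio: of the 8, 4 did not pass the background limit in either sample, 3 had log2 ratios between -0.36 and 0.01, and Mmp13 was at 0.78.

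The Adamts genes held the lowest value of all members. Adamts4 (aggrecanase 1) cuts aggrecan, versican and brevican, the large proteoglycans of cartilage and brain matrix. Its 3 probes lie within chromosome 1 from 173189952 to 173190768 (mm9) and had signals of 64.6, 36.7 and 296 after noise, against 123, 90.5 and 822 at baseline. All were lower after noise, with log2 ratios of -0.93, -1.30 and -1.47, and the gene was 2.46-fold lower. Its ratio was above that of only 0.55% of all measured genes. With the normexp background it was at -0.68, that is under 2-fold. Central neuron and glia markers, whose median was -1.20 (-0.57 with the normexp background), were lower in the same sample, and their part in the Adamts4 value was not tested.

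The other 6 members grouped here as proteoglycan-cleaving had values on both sides of 0, and none was past 2-fold. Adamts8 had a signal of 19.9 after noise and 34.8 at baseline, 1.75-fold lower (-0.81), and Adamts15 had 142 after noise and 238 at baseline, 1.67-fold lower (-0.74). These are adjacent genes on chromosome 9, and 1 probe measured each. Adamts8 was at -0.34 with the normexp background. Adamts1, an enzyme of ovary and vessel wall, had 804 after noise and 679 at baseline (0.24). Adamts5 (aggrecanase 2), the gene next to Adamts1 on chromosome 16, was at 0.05, with probes between -0.15 and 0.23. The 2 aggrecanases thus had log2 ratios of -1.30 for Adamts4 and 0.05 for Adamts5. Adamts9, a protease of the secretory pathway and cell surface, was at -0.26 with all 4 probes below 0, and the 2 probes of Adamts20 were at 0.10 and -0.51.

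The procollagen N-proteinases trim collagen precursors before fibrils form. Adamts2 was at 0.23, with signals of 21.4, 120 and 1721 on its probes after noise, against 17.9, 118 and 1462 at baseline, and at 0.00 with the normexp background. Adamts14 had 455 and 94.6 on its probes after noise, against 424 and 84.0 at baseline, and was at 0.14 (0.07 with the normexp background). Adamts3 could not be given a direction, since 1 probe passed the background limit on the noise array only (4.76 after noise and 4.70 at baseline) and the other on the baseline array only (3.02 after noise and 5.45 at baseline).

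Of the enzymes that cut cartilage oligomeric matrix protein, Adamts7 was at 0.29, with 31.3 after noise and 25.5 at baseline, and at 0.04 with the normexp background. Adamts12 was at -0.43, with 6.66 and 63.4 on its probes after noise, against 9.99 and 77.2 at baseline, and at -0.21 with the normexp background. Adamts13, which cuts von Willebrand factor in plasma, did not pass the background limit in either sample. Among the 6 remaining genes, Adamts16 was lowest at -0.70, from 8.73 after noise and 14.2 at baseline, and was at -0.23 with the normexp background. Adamts10, a protease linked to fibrillin microfibrils, was highest at 0.30, with 79.5, 72.1, 28.6, 111 and 231 on its probes after noise, against 51.0, 76.8, 23.1, 90.3 and 226 at baseline. Its 5 probes ranged between -0.09 and 0.64, and with the normexp background it was at 0.04. Adamts18 had 60.2, 73.1, 10.5 and 34.3 on its probes after noise, against 71.6, 91.8, 8.77 and 39.7 at baseline (-0.23). Adamts17 had 55.5, 9.65 and 69.2 on its measured probes after noise, against 62.5, 12.7 and 64.4 at baseline (-0.17). In both genes the probes lay on either side of 0. Adamts6 was at -0.14 and Adamts19 at 0.21. Adamts6 had the widest spread of all members, with probes between -0.40 and 0.40. Over the 17 measured Adamts genes the median was -0.17, and it was 0.05 with spike-in scaling.

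The size of these differences can be set against how far probes and genes scatter at each level. Of the 37 members, 31 lay inside the central 95% of log2 ratios of all genes at their own level. The 2 above it were Mmp13 and Timp3, and the 4 below it were Adamts4, Timp4, Adamts8 and Mmp11. Adamts8 was just outside, at -0.81 beside a limit of -0.77 for signals of 20 to 200, and Adamts15 just inside, at -0.74. Adamts16 was inside because genes under a signal of 20 ran from -0.99 to 0.76. Of the 17 members with several measured probes, 9 had all probes on the same side of 0. These 9 include the 3 with a log2 ratio past 0.5, which are Timp3, Timp4 and Adamts4. The same probes gave these ratios, so this agreement is partly built in. The 20 other members, Mmp13, Mmp11, Adamts8, Adamts15 and Adamts16 among them, rest on 1 measured probe each.

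**Figure D3:**
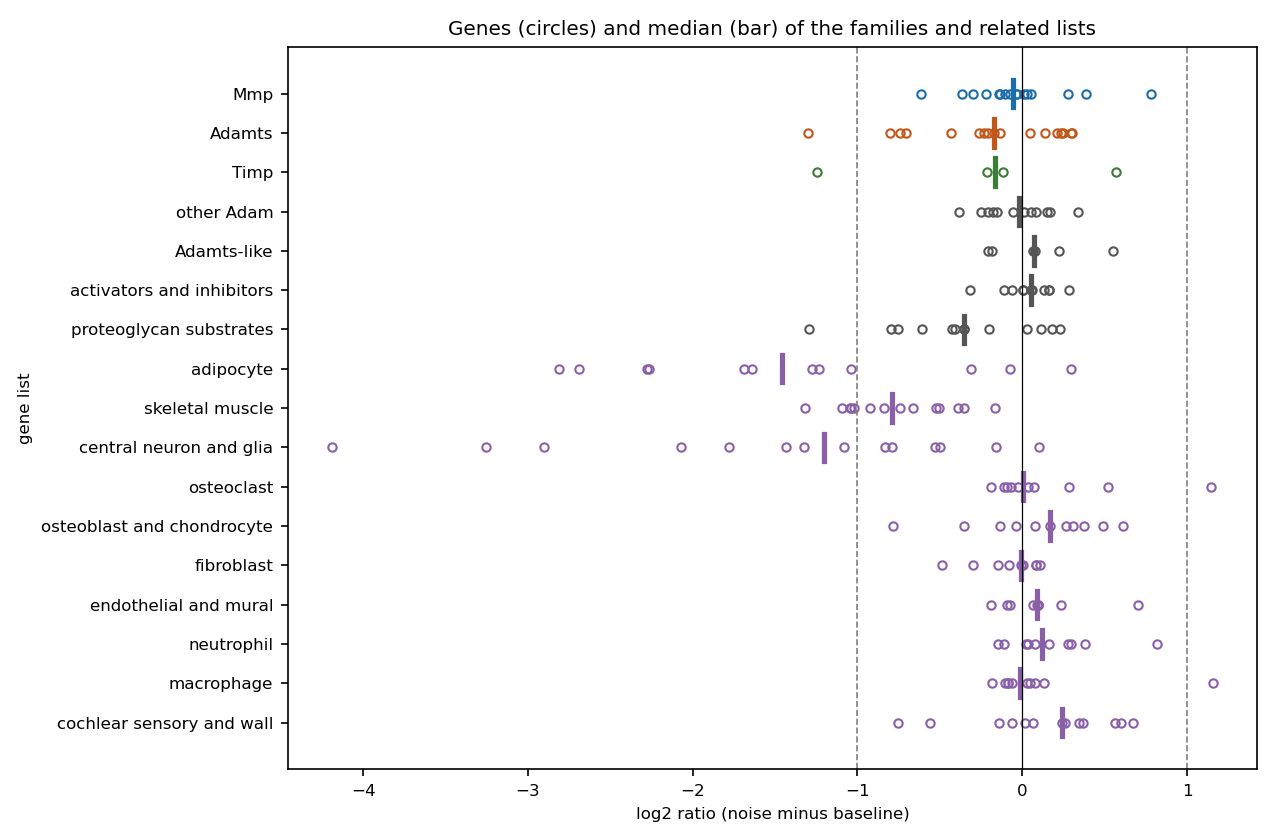
Log2 ratio (noise minus baseline, x axis) of genes (circles) and their median (bar) in the 3 families, in 4 related lists and in 10 lists of cell type markers (y axis); dashed lines mark 2-fold. The adipocyte (-1.46), central neuron and glia (-1.20) and skeletal muscle (-0.79) medians lie lowest, and the medians of the 3 families lie between -0.17 and -0.06.

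Markers of tissues around the cochlea differed between the samples, and several of these tissues express members. Of 12 adipocyte markers, 9 were at least 2-fold lower after noise. Their median was -1.46, and their summed signal was 6411 after noise and 23592 at baseline, with brown-fat Ucp1 at -2.81. Of 14 measured central neuron and glia markers, 8 were at least 2-fold lower, with a median of -1.20 and a summed signal of 4836 after noise and 10859 at baseline. This median was -0.57 with the normexp background and -0.83 with a stricter filter on dim probes. Skeletal muscle markers were below 0 in 14 of 14, with a median of -0.79 (-0.48 with the normexp background). Their summed signal was 15133 after noise and 20901 at baseline, most of it from Pvalb, with 12594 after noise and 16083 at baseline. Of the adipocyte markers 11 were below 0 and Plin4 was at 0.30. Of the measured central neuron and glia markers 13 were below 0 and Slc1a3 was at 0.10. Slc6a5, a central neuron marker, was above background at baseline only. Adamts8, Adamts15, Adamts16 and Mmp11 differed in the same direction as these lists, as Timp4 and Adamts4 did, and the part of these tissues in their values was not tested. Fibroblast markers (median -0.01 over 9 genes), endothelial and mural markers (0.09 over 10) and macrophage markers (-0.02 over 10) were close to the median of all genes. Cochlear markers had a median of 0.24, with 9 of 13 above 0, and a median of 0.03 with the normexp background.

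Genes of proteoglycans, link proteins and other matrix proteins, with substrates of the aggrecanases among them, had values on both sides of 0. Of these 13 genes, 9 were below 0 and 1 was at least 2-fold lower, with a median of -0.35. The median was -0.11 with the brightest probe per gene, -0.22 with the stricter filter and -0.25 with the normexp background. The summed signal was 31109 after noise and 29775 at baseline, most of it from decorin (Dcn), with 27853 after noise and 25686 at baseline. The gene past 2-fold was tenascin-R (Tnr), a matrix protein of the central nervous system, with 11.1 after noise and 27.1 at baseline (-1.29), and it was at -0.40 with the normexp background. The brain link protein Hapln2 had a signal of 50.7 after noise and 88.0 at baseline (-0.80), and brevican (Bcan), a lectican of brain that Adamts4 cuts, had a signal of 815 after noise and 1375 at baseline (-0.75). The cartilage lectican aggrecan (Acan) had 452 after noise and 577 at baseline, at -0.35, and decorin, of fibrous matrix, was at 0.12. The 4 members of this list at or below -0.5, which are Tnr, Hapln2, Bcan and neurocan (Ncan, -0.61), are known mainly from the central nervous system.

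The 11 measured genes of protease activation and control described here had small differences, with none past 0.5, 8 above 0 and 3 below 0. Plau, the urokinase that activates plasminogen, had a signal of 104 after noise and 93.3 at baseline (0.16). With no filter on dim probes it was at 0.78. The tissue activator Plat was at -0.11, and the urokinase receptor Plaur at -0.06. Furin, which activates membrane-type enzymes and Mmp11, was at 0.06, with 12857 after noise and 12332 at baseline. Reck, a membrane-anchored inhibitor of several Mmp enzymes, was at 0.00, alpha-2-macroglobulin (A2m), a plasma protease trap, at 0.29 (388 after noise and 318 at baseline), and basigin (Bsg), an inducer of Mmp genes, at -0.32 (1898 and 2362 in the same order). Plg was above background on the baseline array only, and Tfpi2 on neither. Their median was 0.05.

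Genes of the related Adam family, which includes cell surface sheddases, had smaller differences. None of the 12 listed Adam genes was past 0.5, and their median was -0.02. Adam17, which releases tumour necrosis factor and is inhibited by Timp3, was at -0.18, with its probes between -0.45 and 0.04, and Adam10, a sheddase of Notch and cadherins, was at 0.17. The extremes were Adam9 at 0.34 (1272 after noise and 1005 at baseline) and Adam22, a neuronal member without protease activity, at -0.38 (13.1 and 17.1 in the same order). Of the 6 Adamts-like and papilin genes, which lack the protease domain, papilin (Papln) was highest at 0.55, with 34.1 after noise and 23.3 at baseline, and was at 0.11 with the normexp background. Adamtsl2 had 21.0 after noise and 17.99 at baseline (0.23), and Adamtsl5 54.6 and 63.1 in the same order (-0.21).

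**Figure D4:**
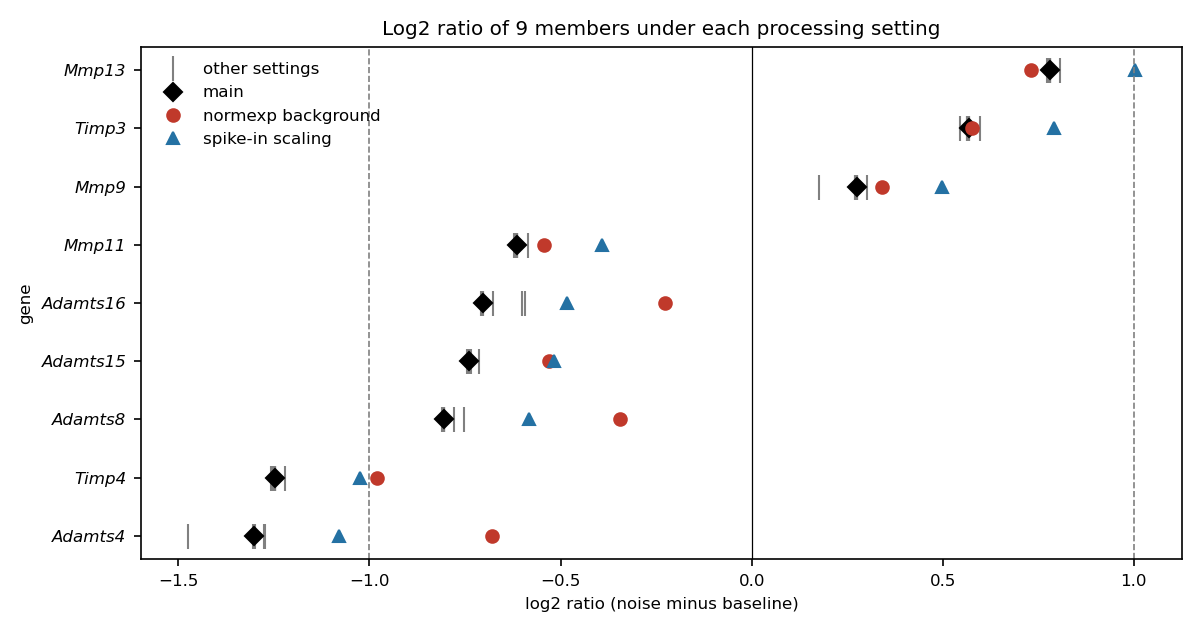
Log2 ratio (noise minus baseline, x axis) of 9 members (y axis) with the processing used here (diamond), the normexp background (circle), spike-in scaling (triangle) and the other settings (ticks); dashed lines mark 2-fold. Each gene keeps its sign under every setting shown. Mmp13 reaches 1.002 with spike-in scaling, and Adamts4 (-0.68) and Timp4 (-0.98) come under 2-fold with the normexp background.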

How the data were processed

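Cochlear RNA of 1 noise and 1 baseline sample was labelled with Cy3 and measured on 1-colour Agilent arrays, which shared 1 slide and 1 scan. Each spot has an intensity from Agilent Feature Extraction 11.5.1.1, background-subtracted and detrended within the array, per the file headers. A further table deposited by the authors gives these intensities as log2 with a 75th percentile of 0 per array and no centring per gene, as worked out from its values.

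Control spots and outlier flags were left out, and nothing was saturated. Repeat spots were averaged as log2 values, after which every array was set to a 75th percentile of 0 over its probes. Measured probes are those well above background on both arrays, and a gene's value is the median log2 ratio of its measured probes. Python 3.11.15 was used, with limma 3.58.1 for the normexp background (offset 50), and the steps were tested on simulated data.

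With 1 array per group there was no test, the number of arrays limits the precision, and sizes of 2-fold and 0.5 in log2 ratio stood in for calls. Alternatives were the normexp background, other scalings and filters, the brightest probe per gene and the authors' table. The genes to be given with signals were members past 0.5, those seen on 1 array by at least 1.5-fold, those with probes over 1 apart (none), up to 3 per role by level, and up to 3 per related list by ratio. For the lists this rule was followed only in part, so the list genes named are not always those with the largest ratios. Further genes were named after their values were seen. The members and lists were chosen with earlier results of these data known. One gene of a related list is not reported here and was left out of its counts and median. Of 90 probes, 66 matched a RefSeq accession, all with the array's symbol. Probe coordinates are on mm9, whose annotation was not used here, so exons are not given.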

Additional observations from a re-analysis of the deposited data

How the results depend on the processing

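Of 251 values of 28 named members under 9 alternatives, 245 moved by less than 0.27, the spread between probes of a gene. The other 6 moved by more. The remaining measured members, Mmp7, Mmp16, Mmp24, Mmp25, Adamts5, Adamts6, Adamts9, Adamts19 and Adamts20, were not among these 28. Spike-in scaling, median scaling and the 75th percentile over measured probes shift every gene by the same amount, which was below 0.27. The authors' table repeats the main values. Under these alternatives no value could pass the limit, so the count of 245 does not measure how robust the values are. Small ratios have no settled sign. Of the 28 members, 11 took the other sign under at least 1 alternative, Timp1, Timp2, Mmp2 and Mmp14 among them. All 11 were within 0.22 of 0. With the normexp background, which compresses dim signals by its offset, no member was at least 2-fold lower (0, against 2), and Adamts4 was at -0.68, Adamts8 at -0.34 and Adamts16 at -0.23. With the brightest probe Adamts10 was at 0.03 and Adamts17 at 0.10, and with no filter on dim probes Mmp17 was at -0.60. Spike-in scaling, chosen after the data were seen, gave medians of 0.104 for the members, 0.164 for Mmp, 0.0513 for Adamts and 0.0557 for Timp genes, and 1 member at least 2-fold higher (Mmp13). The 8 spike-in probes themselves differed by -0.20 to 0.40. Of all genes past 2-fold, 32.8% were higher with the scaling used here, 65.4% with spike-in scaling (351 higher and 186 lower), 42.0% with quantile normalization and 43.1% with the normexp background (56 and 74). Related genes and lists gave 499 values, of which 51 moved. No paired analysis was possible because there was only 1 array in a group, and leaving out a replicate was not possible either. Of the 37 measured members, 6 had signals under 20, where probes of a gene differed with an SD of 0.41.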

Other observations

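Adam genes outside the list of 12 described above, many of them known from the testis, numbered 21 on the array, and 8 were measured on both arrays. Their median log2 ratio was -0.10, and none was past 2-fold. The lowest was Adam4, with a signal of 17.96 after noise and 28.2 at baseline (-0.65), and the highest Adam26b at 0.15. The remaining 13 did not have a probe well above background on both arrays.

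Some genes of the marker lists, such as Calcr, Cd163, Cxcr2 and Myh11, stood apart from the other members of their list. Calcr, the calcitonin receptor of osteoclasts, had a signal of 32.1 after noise and 14.5 at baseline, 2.22-fold higher (1.15), while the osteoclast enzyme genes Acp5 and Ctsk were at -0.02 and -0.07. With the normexp background Calcr was at 0.22. Itgb3, of the same list, was at 0.52 (0.26 with the normexp background). Among macrophage markers, the scavenger receptor Cd163 was at 1.16 from probes at 0.71 and 1.61, and the other 9 measured markers lay between -0.18 and 0.13. It was at 0.58 with the normexp background. Among neutrophil markers Cxcr2 was at 0.82 (0.72 with the normexp background). Among endothelial and mural markers Myh11 was at 0.70 (0.27 with the normexp background), with probes between -0.09 and 0.94.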
